A study of Homo sapiens with 8 samples.

Results

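The comparison described here asks whether the change that luteolin and gefitinib together made to a miRNA was smaller than, equal to or larger than the sum of the changes that the drugs made alone. The measure is the interaction, which is the log2 signal with luteolin plus gefitinib, minus that with luteolin, minus that with gefitinib, plus that with DMSO. An interaction of 0 means that the log2 changes added up. A positive value means that the level under both drugs lay above the sum, and a negative value that it lay below. The miRNAs were those that the scanner software detected on all 8 arrays, which were 365 of the 1887 human miRNAs with probes. The size of the interaction did not enter this choice, but 6 of the 8 arrays were of drug-treated cells, so miRNAs that a drug took above or below detection were left out.

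The cells were PC-3, an established line from a human prostate cancer that grows without androgen. For 24 h they were kept with the solvent DMSO, with luteolin, with gefitinib, or with both drugs together, each drug at 60 µM. Luteolin is a plant flavonoid and gefitinib inhibits the kinase of the epidermal growth factor receptor (EGFR). Each of the 4 groups had 2 arrays that the labels call biological replicates, so p-values rest on the spread between 2 arrays per group.

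A miRNA is a short RNA that guides a silencing complex to mRNAs, mainly through pairing of its seed, the bases 2 to 8 from the 5′ end, and so lowers the output of those mRNAs. Each hairpin precursor can give 2 mature strands, named for the 5′ or the 3′ side of the hairpin, of which the guide arm is usually abundant and the passenger arm is degraded faster. miRNAs cut from 1 transcript form a cluster, and miRNAs with the same seed form a family. The arrays measured RNA of whole cultures, so fewer cells with a miRNA and less of it per cell cannot be told apart.

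The mature sequences below are those on which the results turn, from RefSeq on GRCh38.p14, with the seed in capitals. The table gave a sequence for 303 of the 365 miRNAs. The first 3 lay above the sum, with miR-503-5p from the X chromosome (chrX:134546371-134546393, minus strand), miR-3125 from chr2:12737376-12737395 (plus strand) and miR-4716-3p from chr15:49169079-49169100 (minus strand). The next 3 lay below the sum, with miR-182-3p and miR-183-3p from neighbouring loci (chr7:129770406-129770426 and chr7:129774928-129774949, minus strand) and miR-642a-3p from chr19:45674978-45674999 (plus strand). The last, miR-100-3p from chr11:122152240-122152261 (minus strand), had the lowest level under both drugs relative to all other arrays.
miR-503-5p: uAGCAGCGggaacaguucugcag
miR-3125: uAGAGGAAgcuguggagaga
miR-4716-3p: aAGGGGGAaggaaacauggaga
miR-182-3p: uGGUUCUAgacuugccaacua
miR-183-3p: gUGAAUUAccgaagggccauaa
miR-642a-3p: aGACACAUuuggagagggaacc
miR-100-3p: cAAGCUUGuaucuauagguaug

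The software detected 395 to 481 miRNAs per array. Of the markers listed for an epithelial prostate line, miR-21-5p was at a scaled signal of 3401 to 4731 and miR-221-3p at 324 to 504, whereas miR-200c-3p and miR-141-3p, which mark epithelial cells, were detected on none of the arrays. Other epithelial markers were detected, with miR-205-5p on 6 arrays at 1.72 to 5.37 and miR-200a-3p, miR-200b-3p and miR-429 on all 8. Of 12 markers of liver, neuron, muscle and blood, 10 were detected on no array, miR-142-3p on 1, and miR-9-5p on all 8 at a signal of 7.58 to 14.9. Signals here are in arbitrary units, scaled to the 75th percentile of the 365 miRNAs on each array, and can be compared between arrays but not between miRNAs.

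The placement of the arrays and the behaviour of their spots bear on every result. The 8 arrays lay on 1 slide, with each treatment in its own column and each replicate number in its own row, so that treatment and slide column cannot be told apart. Each miRNA had several probes, each printed as several spots. A spot was counted as bright when its signal exceeded 3 times the median of the spots of its probe, with that median taken as at least 20. Spots of dim probes can therefore lie far from their median without being counted, and the absence of bright spots says little about dim miRNAs. The arrays of DMSO-treated cells held 2 and 5 bright spots among 56610, and those of luteolin-treated cells 4 and 1. The arrays of gefitinib-treated cells held 87 and 103, and those of cells given both drugs 113 and 72. The bright spots of the 2 gefitinib arrays shared 70 positions and those of the 2 combination arrays shared 69, while no pair of arrays from different groups shared any.

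The same pattern appeared in the spots as a whole. Over 3731 spots of probes with a median above 50 on every array, the deviation of a spot from the median of its probe correlated at r = 0.893 between the 2 gefitinib arrays and at r = 0.913 between the 2 combination arrays. The value was 0.457 for the DMSO arrays and 0.484 for the luteolin arrays, and -0.07 to 0.491 for the 24 pairs from different groups. Spots are not independent replicates, and these values are a description. The errors of the 2 arrays of the gefitinib and combination groups were therefore in part shared, which the spread between replicates does not show. Among the 365 miRNAs, 40 had a bright spot on at least 1 array. Values of the single miRNAs and the summaries for which this is stated were recomputed from the median spot of each probe in place of the mean, an alternative chosen after seeing the data.

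Across the profile, and relative to the 75th percentile of the same miRNAs, to which each array was scaled, the combination came near the sum for most miRNAs. The median interaction was 0.05, with quartiles of -0.15 and 0.24, and 296 of the 365 miRNAs (81.1%) lay within 0.5 log2 units of 0, which is a 1.41-fold departure. Most sums were themselves small, lying between -1 and 1 for 297 miRNAs on the replicate 1 arrays and 307 on the replicate 2 arrays. Where neither drug changed a miRNA much, nearness to the sum says little about whether effects add. There were 201 values above 0 and 164 below. This balance depended on the scaling. Without scaling the median was -0.44 with 40 values above 0, and with spike-in probes it was -0.46 with 37 above 0, while the human small-RNA control probes gave 0.01 with 184 above 0. The interaction ranged from -1.37 for miR-182-3p to 3.18 for miR-503-5p, with 5 values above 1 and 3 below -1. From median spots, 299 miRNAs lay within 0.5 of 0.

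Nearness to the sum was not resolved for every miRNA. The standard error of an interaction had a median of 0.30, and its 95% interval a median half-width of 0.75. The interval lay wholly within a 2-fold departure in either direction for 187 miRNAs (51.2%) and excluded 0 for 21. The count of 187 became 46 without scaling, 27 with spike-in probes and 347 with normexp and quantile normalization, and was 100.0 to 161 when 1 array was left out. For 157 (43.0%) it contained 0 and reached past a 2-fold departure, so that neither a sum nor a departure of that size can be stated for them.

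The limma test called 3 of the 365 miRNAs at an adjusted p under 0.05, namely miR-503-5p, miR-3125 and miR-5194, all above the sum. The test ran over the 480 miRNAs that any group showed as detected on its 2 arrays, and 16 of them were called, or 3.33%. Of these calls, 13 were among the 115 miRNAs that were tested but not detected on every array. At an unadjusted p under 0.05 there were 21 of the 365, 11 above and 10 below the sum, and 49 of the 480. From median spots the call of miR-503-5p remained, and the other 2 calls were lost.

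To describe whether large responses added up, the combination effect was set against the summed drug effects with arrays of different replicate numbers, so that no array served on both sides. The slope is the covariance of the combination effect on 1 set of arrays with the sum on the other set, divided by the covariance of the sums of both sets. Noise that the sets do not share therefore does not lower it, and without shared errors a slope of 1 corresponds to a sum. Errors shared within a slide column are not removed. Those of the DMSO arrays enter both covariances, while those of the luteolin or gefitinib arrays enter only the divisor, which lowers the slope. How much they lowered it was not tested, so a slope below 1 need not mean a shortfall from the sum. The slope was 0.63 with the combination on the replicate 1 arrays and 0.66 on the replicate 2 arrays, with a mean of 0.64. Without miR-503-5p, the miRNA with the largest summed effect, the mean was 0.68. It was 0.65 from median spots.

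**Figure D1:**
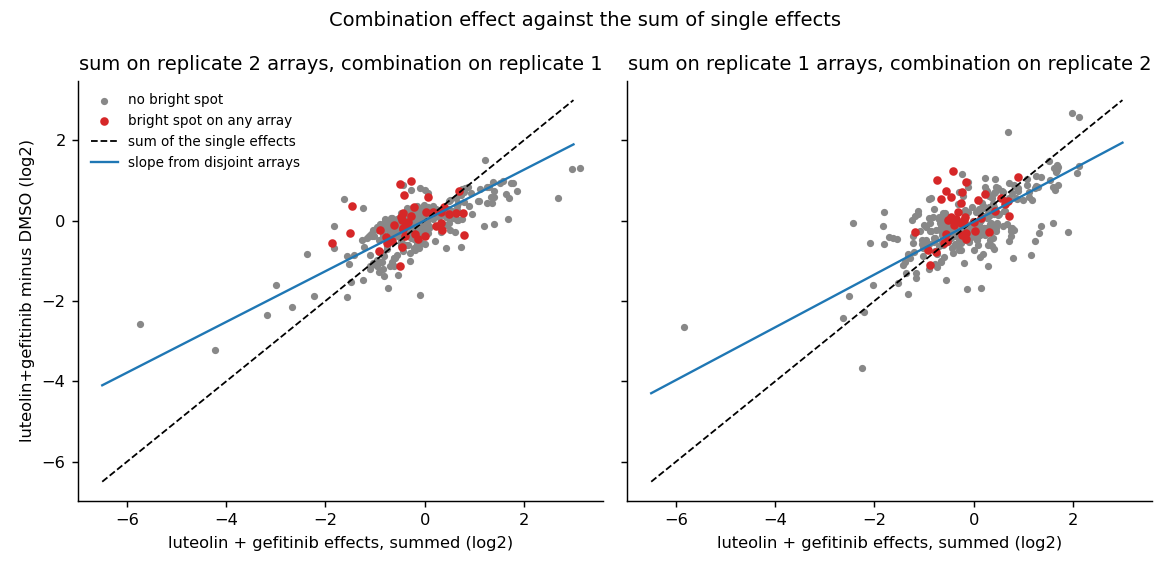
Combination effect (log2, luteolin plus gefitinib minus DMSO) against the sum of both drug effects (log2) for the 365 miRNAs, with the axes from arrays of different replicate numbers. The solid lines have slopes of 0.63 and 0.66, corrected only for noise that the sets of arrays do not share. The dashed line, the sum, has a slope of 1. Noise in the sum also spreads the points along the horizontal axis. The far left point in both panels is miR-503-5p, and red points have a bright spot on at least 1 array.

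Both the rises and the falls came short of the sum with the main scaling, with 2 limits. miRNAs that both drugs together took below detection were left out, so falls that added up can be missing. Errors shared by the 2 arrays of a single drug enter the choice and the sum but not the signal under both drugs. The size of these influences was not tested. There were 30 miRNAs whose drug effects summed to at least 1 on the replicate 1 arrays. On the replicate 2 arrays their median sum was 1.31 and their median combination effect 0.89. For the 25 chosen on the replicate 2 arrays, the medians on the replicate 1 arrays were 1.54 and 0.73. In these miRNAs gefitinib alone gave medians of 1.11 and 0.97 and luteolin alone 0.18 and 0.42, so the combination lay slightly below gefitinib alone.

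For the 38 miRNAs with a sum of -1 or lower on the replicate 1 arrays, the replicate 2 arrays gave a median sum of -0.94 and a median combination effect of -0.74. For the 33 chosen the other way the medians were -1.03 and -0.85. The 297 and 307 miRNAs between these limits had medians of -0.27 against -0.20 and of -0.11 against -0.07. The median interaction was -0.39 and -0.70 among the rises and 0.29 and 0.28 among the falls, and the difference in size was not tested. From median spots, for the same miRNAs, these were -0.35, -0.65, 0.27 and 0.29. The result for the falls depended on the scaling. Without scaling their median interactions were -0.45 and 0.03 and with spike-in probes -0.47 and 0.01, while those of the rises were -1.13 and -0.95 and then -1.15 and -0.97.

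The interaction itself was similar on the arrays of both replicate numbers, with medians of -0.01 and 0.09. Across the 365 miRNAs, which are not independent, it correlated between the 2 sets of 4 arrays at r = 0.576 (Spearman's rho = 0.523), at r = 0.518 without miR-503-5p, and at r = 0.535 from median spots. The 2 sets share no array, but they share the slide columns described above.

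**Figure D2:**
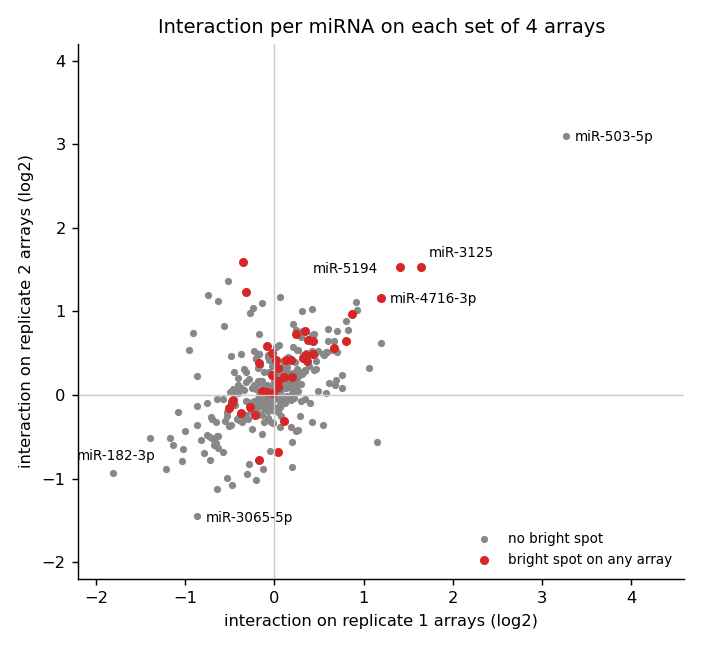
Interaction (log2) of each of the 365 miRNAs on the replicate 1 arrays (horizontal) and the replicate 2 arrays (vertical), with miRNAs that have a bright spot on any array in red. miR-503-5p stands alone at 3.27 and 3.10. The points next highest on both axes together, miR-3125, miR-4716-3p and miR-5194, all have bright spots and lie at 1.16 to 1.65.

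miR-503-5p had the largest interaction, with a fall under each drug and none beyond it under both. It belongs to a cluster on the X chromosome together with miR-424, and its relatives are known to lower cell cycle proteins. Its scaled signal was 9.78 and 10.8 with DMSO, 1.11 and 1.45 with luteolin, 1.52 and 1.51 with gefitinib, and 1.65 and 1.74 with both drugs. All drug arrays lay far below the DMSO arrays, and the combination arrays lay above every array of a drug alone. Luteolin lowered it by 3.02 log2 units and gefitinib by 2.76, so their sum was -5.78, whereas both drugs together gave -2.60. The interaction was 3.18 (SE 0.24, 95% interval 2.58 to 3.79, limma adjusted p = 0.00319).

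A fall by the sum could not have been seen in miR-503-5p. It would have taken the signal to 0.187, below the floor of 0.609, the lowest level at which the software typically detected a miRNA. The software's total is the sum of the probes whose signal exceeds 3 times their error, and it counted 3 probes of miR-503-5p on the DMSO arrays and 1 on every drug array. With the same probe on all arrays, an alternative chosen after seeing the data, the DMSO signals were 5.31 and 5.61 and the interaction was 2.27 (95% interval 1.69 to 2.85, limma adjusted p = 0.011). The 3 probes taken separately gave 1.81 to 2.70. Its highest spot on any array was 30.4, too dim to be counted as bright whatever its probe. From median spots the interaction was 3.11 (limma adjusted p = 0.00477). The alternatives gave limma adjusted p-values of 0.00184 to 0.0847, the last with quantile normalization, which ended the call. The interaction was 0.30 with normexp and 0.62 with 16 added to the signal, both of which compress low signals.

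miR-15b-3p, the passenger arm of a miRNA that shares targets with miR-16, was the only other miRNA whose sum lay under the floor, at 0.492. Its signal was 3.03 and 3.62 with DMSO, 1.21 and 1.59 with luteolin, 1.33 and 1.04 with gefitinib, and 1.00 and 0.985 with both. The interaction of 1.01 did not pass the test (limma adjusted p = 0.273) and was 0.61 from the probes counted on all arrays. The total counted 2 probes with DMSO and 1 on every drug array. On the common probe the DMSO signals were 2.25 and 2.77, and the sum then lay slightly above the floor.

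**Figure D3:**
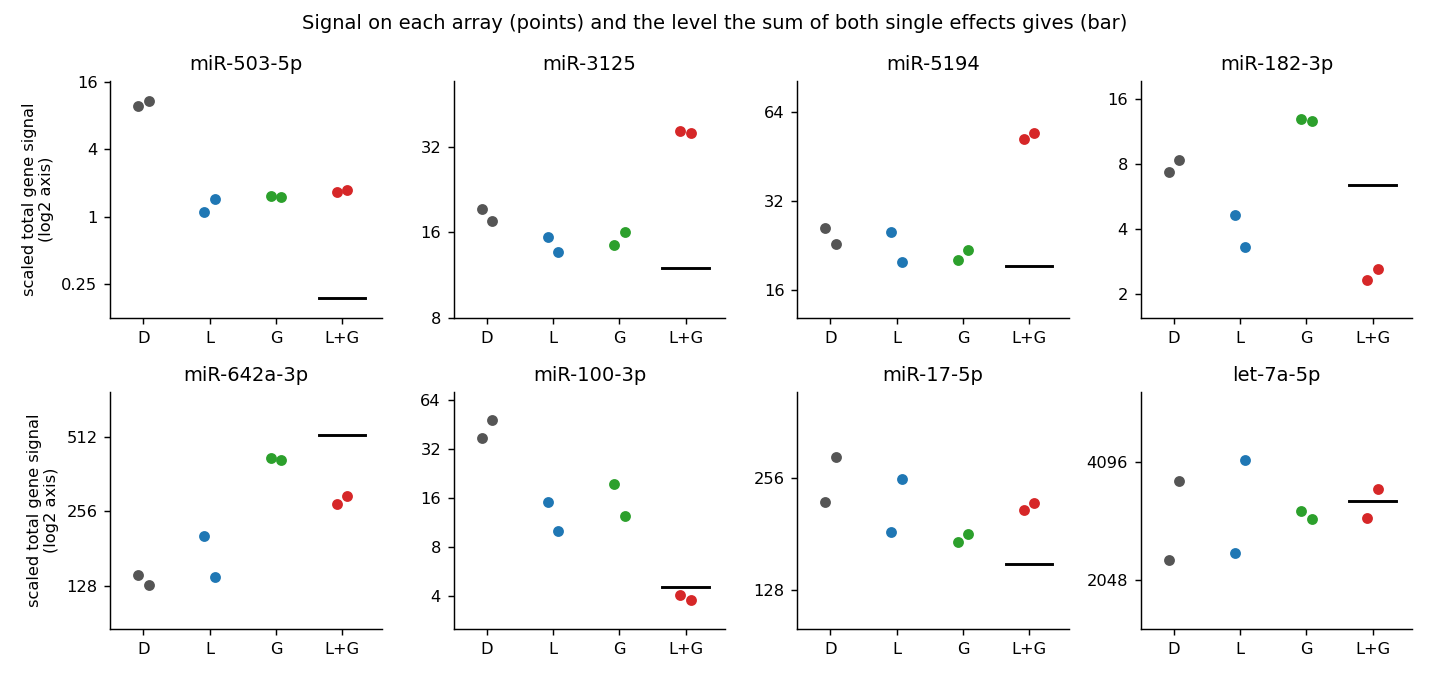
Scaled total gene signal (arbitrary units, log2 axis) of 8 miRNAs on each array, with D for DMSO, L for luteolin, G for gefitinib and L+G for both drugs. Points are single arrays and the bar is the level that the sum of both log2 effects gives. For miR-503-5p the bar at 0.187 lies under all arrays, for miR-3125 and miR-5194 both L+G arrays lie above all others, and for miR-100-3p the bar nearly meets them.

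The other 2 calls were in miRNAs for which neither drug alone differed from DMSO in the test. miR-3125 had a signal of 19.3 and 17.6 with DMSO, 15.4 and 13.6 with luteolin, 14.5 and 16.1 with gefitinib, and 36.3 and 35.8 with both drugs. The combination arrays lay 1.85-fold above the highest other array. The interaction was 1.59 (SE 0.20, 95% interval 1.09 to 2.08, limma adjusted p = 0.0167).

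miR-5194 had a signal of 26.0 and 22.9 with DMSO, 25.2 and 19.8 with luteolin, 20.2 and 21.8 with gefitinib, and 51.8 and 54.3 with both. The lower combination array lay 1.99-fold above the highest other array, the largest such gap among the 365 miRNAs. The interaction was 1.46 (95% interval 0.87 to 2.06, limma adjusted p = 0.0361). It was not called when the replicate number was added to the model as a block. The functions of miR-3125 and miR-5194 are not well known.

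The spots of both miRNAs disagreed on the combination arrays. Each miRNA had 30 spots per array. In miR-3125, 7 and 6 spots were bright on the combination arrays, 3 and 3 on the gefitinib arrays and 0 on the DMSO and luteolin arrays. On 1 of its 2 probes the median spot was 34.3 and 26.9 with DMSO and 37.4 and 27.8 with both drugs, before scaling, while the highest spot went from 45.9 and 39.7 to 304 and 200.3. In miR-5194, 6 and 7 spots were bright on the combination arrays and 3 and 3 on the gefitinib arrays, and in 1 probe the median spot was higher too, at 92.3 and 64.4 against 44.5 and 37.6 with DMSO.

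The probes of these miRNAs also disagreed with each other. The 2 probes of miR-3125 gave interactions of 0.72 and 2.06, and those of miR-5194 gave 0.98 and 1.85. From median spots the interaction of miR-3125 was 0.69 (limma adjusted p = 0.357) and that of miR-5194 was 0.93 (limma adjusted p = 0.169). The alternatives gave limma adjusted p-values between 0.0109 and 0.357 for miR-3125, and between 0.0233 and 0.372 for miR-5194. The cause of the bright spots was not tested.

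**Figure D4:**
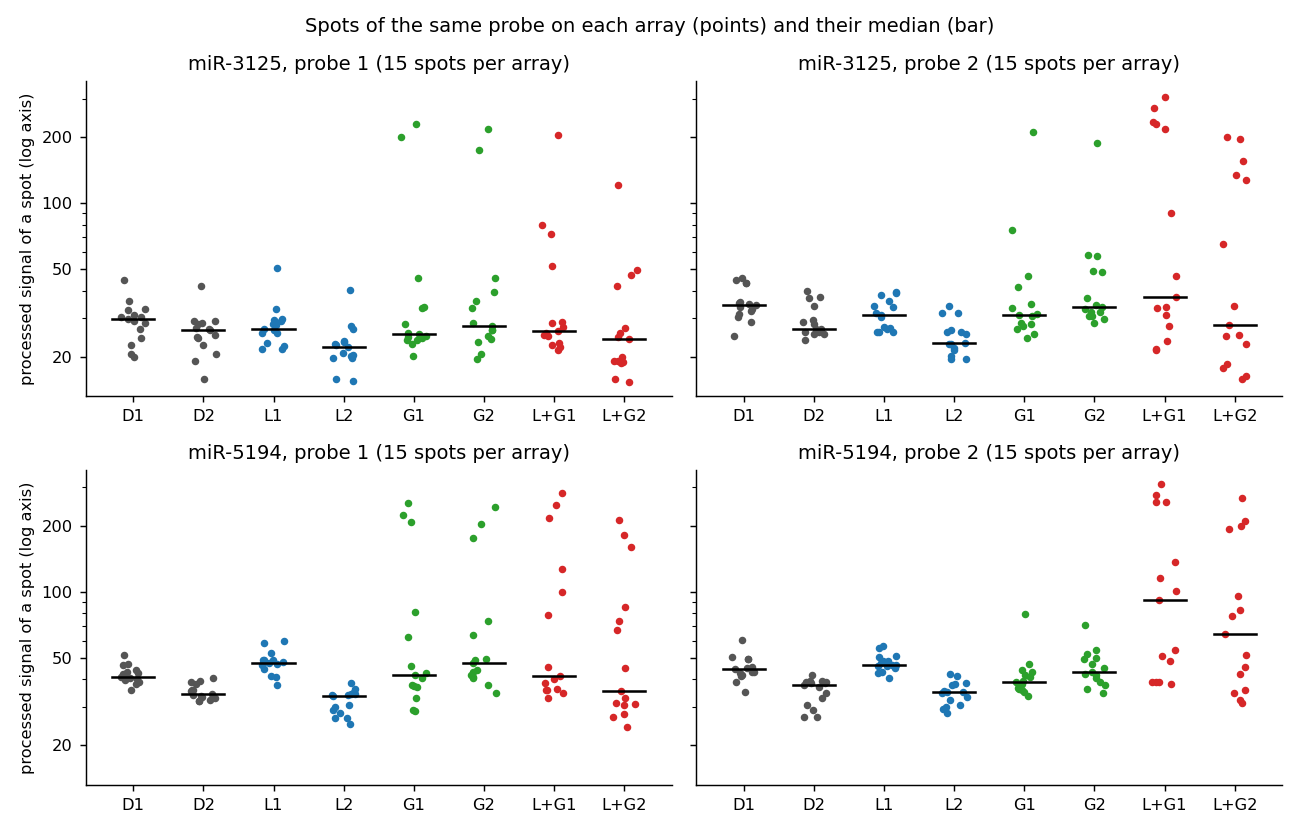
Processed signal of every spot (arbitrary units, log axis, before scaling) of both probes of miR-3125 and of miR-5194 on each array. D, L, G and L+G mark DMSO, luteolin, gefitinib and both drugs, 1 and 2 the replicate, and bars the median of 15 spots. On the L+G arrays the highest spot of a probe lies at 122 to 310, against 39.7 to 60.1 on the D arrays, and most medians stay near those of the D arrays except in the second probe of miR-5194. On the G arrays 1 to 3 spots of the other 3 probes stand out.

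Some of the next highest interactions also had uneven spots or probes. For miR-4716-3p the signal was 26.8 and 23.7 with DMSO, 21.9 and 17.9 with luteolin, 22.3 and 23.4 with gefitinib, and 41.5 and 39.6 with both, for an interaction of 1.18 (limma adjusted p = 0.0582). It had 5 and 5 bright spots on the combination arrays, and its interaction was 0.36 from median spots. miR-3156-5p, with 6 and 6 bright spots there, had an interaction of 0.92 that became 0.76, and its 2 probes gave 0.83 and 1.02. miR-501-5p had no spot counted as bright. Its interaction of 0.84 (adjusted p = 0.109) came from probes that gave 0.03 to 1.88, and in its highest probe the spots of the combination arrays ranged from 6.87 to 51.6 and from 4.06 to 41.0.

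In miR-196a-5p and miR-542-3p, which are too dim for the count of bright spots to bear on them, the mean signal was lower under each drug than with DMSO and not lower still under both. miR-196a-5p, from the HOX gene clusters, had a signal of 2.95 and 2.96 with DMSO, 2.36 and 2.59 with luteolin, 2.28 and 2.11 with gefitinib, and 2.96 and 3.14 with both, for an interaction of 0.73 (limma adjusted p = 0.175). miR-542-3p, of the same cluster as miR-503-5p, had an interaction of 0.61 (limma adjusted p = 0.299). From median spots the values were 0.61 for miR-196a-5p and 0.55 for miR-542-3p.

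On the other side, no interaction below the sum was called with the main settings. miR-182-3p and miR-642a-3p were each called in 1 of the alternatives. The 6 lowest by the naming rule, which took those with an unadjusted p under 0.05 and the same sign on both replicate numbers, are given here as a description. In 5 of the 6, the gefitinib effect, which is a term of the interaction, was 0.49 to 1.62 log2 units and passed the test in miR-642a-3p only. In miR-22-5p and miR-502-3p the software counted 2 probes on the gefitinib arrays and 1 on the DMSO arrays, and on the common probe the gefitinib effects were 0.18 and 0.13. In the sixth, miR-3065-5p, either drug gave a higher total than DMSO, but 2 probes were counted on those arrays and 1 on the DMSO arrays, and on the common probe the luteolin effect was 0.10 and the gefitinib effect -0.05.

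miR-182-3p, a passenger arm of the cluster that also holds miR-183 and miR-96, had the lowest interaction. Its signal was 7.37 and 8.32 with DMSO, 4.64 and 3.31 with luteolin, 12.9 and 12.6 with gefitinib, and 2.32 and 2.62 with both drugs. Gefitinib alone gave the highest arrays and both drugs together the lowest. The interaction was -1.37 (SE 0.28, 95% interval -2.08 to -0.67, limma adjusted p = 0.0814), with -1.81 and -0.93 on the arrays of the replicate numbers. It was -1.01 from the probes counted on all arrays and -1.26 from median spots.

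miR-183-3p, a passenger arm from the same cluster, ran in parallel. Its signal was 19.1 and 23.4 with DMSO, 14.4 and 16.2 with luteolin, 28.9 and 30.4 with gefitinib, and 12.7 and 13.0 with both. Here too the order was gefitinib, DMSO, luteolin and both drugs, with no overlap between groups. The interaction was -0.74 (limma adjusted p = 0.273), and -0.66 from the probes counted on all arrays. miR-22-5p had this order of group means as well, with an interaction of -0.75 that became -0.44 from those probes.

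miR-642a-3p, which lies in an intron of GIPR, had the largest gefitinib effect among these, 1.62. Its signal was 142 and 129 with DMSO, 204 and 140 with luteolin, 419 and 411 with gefitinib, and 273 and 295 with both. The sum would have been 518, and the combination stayed between DMSO and gefitinib. The interaction was -0.87 (95% interval -1.59 to -0.15, limma adjusted p = 0.33), with nearly the same value from each of its 3 probes (-0.88 to -0.84). miR-642b-3p, which has the same seed, had an interaction of -0.56.

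Other negative values depended on which probes the software counted. The number of probes in the total changed between arrays for 66 of the 365 miRNAs (18.1%), and 299 had the same probes throughout. With the probes counted on all arrays, the interaction of miR-3065-5p went from -1.16 to -0.09, that of miR-502-3p from -0.92 to -0.18, and that of miR-30e-3p from -0.64 to -0.13. miR-194-5p, described with the lists, went from -1.05 to -0.16. Among the 66, 5 interactions exceeded 1 in size, and 2 did so with common probes.

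The miRNAs whose interval lay within a 2-fold departure are near the sum by that choice. The 5 of them with the largest summed effects were miR-4687-3p, miR-16-2-3p, miR-4516, miR-4482-3p and miR-4496. miR-4687-3p had a signal of 78.3 and 74.2 with DMSO, 105.9 and 90.8 with luteolin, 167 and 175 with gefitinib, and 151 and 206 with both, for a sum of 1.53 and an interaction of -0.32 (95% interval -0.99 to 0.36). miR-16-2-3p, a passenger arm of miR-16, had 7.65 and 8.92 with DMSO, 4.67 and 5.47 with luteolin, 4.88 and 5.03 with gefitinib, and 3.62 and 3.63 with both. Its sum was -1.45 and its interaction 0.26 (95% interval -0.27 to 0.78). The total of miR-16-2-3p counted 2 probes with DMSO and gefitinib but 1 with luteolin and with both. On the common probe the signal was 6.57 and 7.33 with DMSO and 4.36 and 4.34 with gefitinib, for an interaction of 0.19. The 2 probes of miR-4687-3p gave interactions of -0.50 and -0.04.

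The remaining 3 differed in which drug carried the effect. miR-4516 had effects of 0.50 with luteolin and 0.82 with gefitinib, and of 0.96 with both. miR-4482-3p had a gefitinib effect of -1.06 and a luteolin effect of -0.06, and both drugs gave -1.08. Its total counted 2 probes on the replicate 1 arrays of DMSO and luteolin and 1 on all other arrays. On the common probe the fall was smaller, from 3.76 and 4.07 with DMSO to 2.13 and 2.36 with gefitinib. miR-4496 had a sum of 1.04 and a combination effect of 0.84.

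miR-100-3p is the passenger arm of miR-100, which is known to target the kinase mTOR. Its signal was 37.8 and 48.2 with DMSO, 15.2 and 10.0 with luteolin, 19.7 and 12.5 with gefitinib, and 4.06 and 3.76 with both drugs. The combination arrays lay 2.46-fold below the lowest other array, the only gap above 2-fold in either direction among the 365 miRNAs. The signal was lower under both drugs than with DMSO (limma adjusted p = 0.00234). The sum of -3.24 compared with a combination effect of -3.45, for an interaction of -0.21, but its interval of -1.30 to 0.87 was wide and the replicate numbers gave -0.96 and 0.54. miR-431-3p, from an imprinted cluster, had a sum of -2.23 and a combination effect of -2.08, with an interval of -1.02 to 1.31.

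Both combination arrays lay above the other 6 arrays for 22 of the 365 miRNAs and below them for 22. Among the 480 tested, 6.04% lay above and 6.04% lay below, so these shares were near the background. Of the 22 above, 11 were among the 40 miRNAs with bright spots, and of the 22 below, 1 was, but 13 of the 22 below were among the 66 miRNAs whose counted probes changed. Those had a median DMSO signal of 5.38, against 30.7 for the other 299, and bright spots cannot be compared between dim and bright miRNAs. The split depended on the scaling, with 5 above and 24 below without scaling, 27 and 15 after quantile normalization, 71 and 6 with the human small-RNA control probes, 10 and 15 with the spike-in probes, and 26 and 13 from median spots. The largest gaps above were in miR-5194, miR-3125, miR-501-5p (1.53-fold), miR-4716-3p (1.48-fold) and miR-671-5p (1.21-fold). miR-671-5p had 4 bright spots on the replicate 1 array of the combination, and its interaction of 0.73 was 0.37 from median spots.

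miR-630 and miR-5703, the pair on which the study followed up, rose with gefitinib (limma adjusted p = 0.019 and 0.0281), and their mean signal was no higher with both drugs. miR-630 had a signal of 32.0 and 18.6 with DMSO, 40.2 and 24.8 with luteolin, 112 and 121 with gefitinib, and 79.4 and 111 with both. miR-5703 had 33.5 and 19.4, 42.2 and 25.8, 105 and 114, and 81.9 and 125 in the same order. Their interactions were -0.68 (95% interval -1.96 to 0.60, limma adjusted p = 0.919) and -0.49 (-1.83 to 0.85, limma adjusted p = 0.986). The intervals contain 0 and a more than 2-fold shortfall. miR-5703 has the same seed as miR-4516, whose interaction was -0.37.

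Families and groups of related miRNAs were described by their medians, beside 0.05 for all 365. The lists were of guide arms unless stated, and no member of a list other than miR-503-5p was called. The let-7 family, which restrains proliferation and is abundant in most differentiated cells, had a median of -0.02 over 9 miRNAs and a range of -0.13 to 0.15, with a median of -0.51 without scaling and 0.04 after median scaling. The standard errors of its members were 0.31 to 0.49, so the narrow range does not come with precise single values.

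The miR-17 family, whose members promote the cell cycle, had 5 positive values. Its median was 0.47, but -0.02 without scaling and -0.04 with spike-in probes, which lowered all miRNAs together. Relative to the median of the 365, all 5 miRNAs were above it with these settings and 4 were with quantile normalization and with the mean processed signal. No member had an unadjusted p under 0.05. miR-17-5p had a signal of 221 and 293 with DMSO, 183 and 256 with luteolin, 172 and 181 with gefitinib, and 210 and 220 with both, which gave an interaction of 0.52 (limma adjusted p = 0.795). The groups overlapped except that both gefitinib arrays were the lowest. miR-20a-5p and miR-20b-5p gave 0.51 and 0.47, miR-93-5p 0.23 and miR-106b-5p 0.07.

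miR-221-3p and miR-222-3p share a seed and are highly expressed in PC-3 cells. miR-221-3p had a signal of 442 and 504 with DMSO, 439 and 492 with luteolin, 350 and 324 with gefitinib, and 464 and 452 with both. Both gefitinib arrays were the lowest and the combination arrays lay within the range of DMSO. The interaction was 0.47 (limma adjusted p = 0.534), and that of miR-222-3p was 0.32.

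The cluster of miR-424, miR-503, miR-542 and miR-450 had a median of 0.61 over 5 detected miRNAs, all above the median of the 365 with every scaling tried. This was the highest median of the lists here, but with normexp and quantile normalization it was 0.11, below those of miR-221-3p and miR-222-3p (0.36), the miR-17 family (0.28) and the miR-29 family (0.12). miR-424-5p had an interaction of 0.55, miR-450a-5p of 0.37 and miR-424-3p of 0.97, the last with an SE of 0.99. The miR-320 family, which is made without the Drosha cleavage of other miRNAs, had a median of -0.22, and all 5 miRNAs were below 0 with every scaling tried.

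The medians of the other lists were 0.05 for 6 miRNAs of the miR-15/16 family, which includes miR-424-5p, 0.09 for 3 of the miR-200 family and miR-205, 0.22 for 3 of the miR-29 family, -0.10 for 5 of the miR-30 family, 0.12 for 5 of the miR-23, miR-24 and miR-27 group and 0.04 for 4 of the miR-181 family. Without scaling these medians were all below 0, from -0.59 for the miR-30 family to -0.27 for the miR-29 family. With quantile normalization that of the miR-29 family was 0.00. Of 3 detected miRNAs linked to p53 the median was -0.36, with miR-194-5p at -1.05 (limma adjusted p = 0.586). The probes counted changed between arrays in miR-192-5p and miR-194-5p. This median was -0.11 with the mean processed signal, -0.03 with normexp and quantile normalization, and -0.17 from median spots of the probes counted on all arrays. Of 3 linked to EGFR signalling the median was 0.11, with miR-7-5p, which targets EGFR mRNA, at 0.62 (limma adjusted p = 0.962). The 15 passenger arms had a median of 0.11 and ranged from -1.37 to 1.01, and 5 of them had an unadjusted p under 0.05, against 21 of all 365. The probes counted changed between arrays in 9 of the 15, and 2 of the 15 had an unadjusted p under 0.05 from the probes counted on all arrays.

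**Figure D5:**
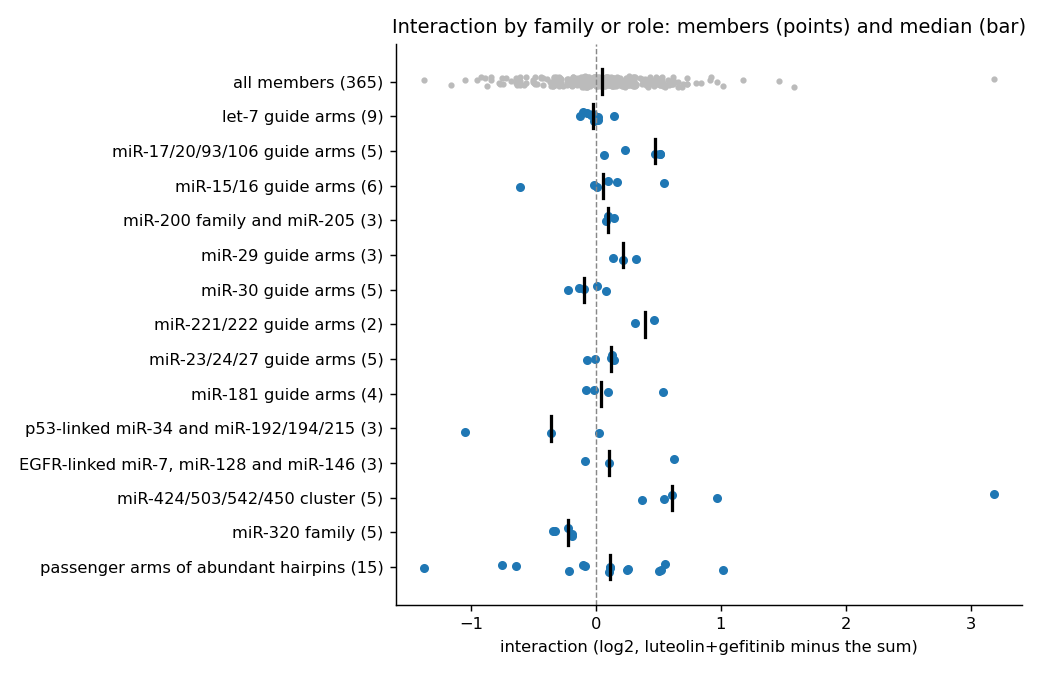
Interaction (log2, combination minus the sum) by list, with the number of miRNAs in parentheses, points for single miRNAs and bars for medians. The median is 0.61 in the cluster of miR-424 and miR-503 and 0.47 in the miR-17 family (-0.02 without scaling), against 0.05 for all 365, and the let-7 points lie between -0.13 and 0.15.

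The spread of the interaction followed the signal. In the lowest tertile of the miRNAs by mean signal (122) the quartiles were -0.19 and 0.35, in the middle tertile (121) -0.14 and 0.20, and in the highest (122) -0.11 and 0.19, while the medians were 0.01, 0.06 and 0.07. The tertiles held 11, 8 and 2 of the 21 miRNAs with an unadjusted p under 0.05, and none of the 3 calls was in the highest tertile. By GC content of the mature sequence the medians were 0.01, 0.05 and 0.08 from the lowest to the highest tertile of 101 miRNAs each.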

How the data were processed

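The study hybridised Cy3-labelled total RNA of PC-3 cells to 8 1-colour Agilent miRNA arrays on 1 slide. The authors extracted the arrays with Agilent Feature Extraction 10.7.3, and the deposited values are background-subtracted linear signal intensity per spot, probe and miRNA, without normalization between arrays. The values of the authors' series table equal these spot intensities and served as an alternative.

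The total gene signal per miRNA was divided by the 75th percentile of each array over the 365 miRNAs detected on all 8 arrays (60.5 to 92.7 before scaling), raised to a floor of 0.609 and converted to log2. limma 3.58.1 in R 4.3.3 was fitted to 480 miRNAs, each detected on the 2 arrays of some group, with 4 group means, no block and 4 residual degrees of freedom. p-values were two-sided, with Benjamini-Hochberg adjustment across these 480. Intervals were 95% and unadjusted. The fit was run on simulated data with planted shifts larger than any interaction seen here and with noise independent between arrays. That run therefore says nothing about smaller interactions or about errors shared within a slide column. The number of arrays limits the precision.

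The miRNAs and lists were chosen with earlier results of these data known. Named were all calls, the 6 highest and 6 lowest other interactions with an unadjusted p under 0.05 and the same sign on both replicate numbers, those whose sum lay under the floor, the 5 largest sums with intervals within a 2-fold departure, up to 5 per direction with both combination arrays beyond the others, miR-630 and miR-5703, and list members. Alternatives changed the scaling, spot summary, background correction, filter, floor, test and arrays. Those on the probes counted on all arrays, on median spots and on the slope without single miRNAs or over miRNAs with unchanged probes were chosen after seeing the data. Sequences and coordinates are from RefSeq (GRCh38.p14) and were matched by name.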

Additional observations from a re-analysis of the deposited data

Results flagged for a closer look

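The effect of gefitinib differed with and without luteolin, by the test of the interaction itself, for 3 miRNAs. The difference was 3.18 log2 units for miR-503-5p, which fell with either drug and no further with both, and whose sum lay under the detection floor. With the same probe on all arrays it was 2.27, since the total counted 3 probes with DMSO and 1 on the drug arrays. The interaction was 1.59 for miR-3125 and 1.46 for miR-5194, whose signal on both combination arrays lay above all other arrays. In the latter pair the bright spots on the combination arrays moved with the result, and the calls were lost when each probe was summarised by its median spot, at 0.69 and 0.93.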

How the results depend on the processing

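The interaction kept its direction for every named miRNA whose interval excluded 0, under every alternative run. The 3 calls became 1 without scaling, with spike-in scaling, with the mean processed signal, with the series table and with median spots over all or common probes, and 6 with normexp and quantile normalization. Leaving out 1 array gave 1 to 5 calls. There was 1 call without DMSO replicate 1, without either gefitinib array or without either combination array, and there were 5 without luteolin replicate 2. The lone array of a group was then assumed to vary like the other groups. miR-3125 lost its call in 11 alternatives, miR-5194 in 16 and miR-503-5p in 1. Above the sum, miR-4716-3p gained a call in 2 alternatives and miR-196a-5p, miR-3156-5p and miR-501-5p in 1 each. Below the sum, miR-182-3p and miR-642a-3p gained a call in 1 each.

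The 187 intervals within a 2-fold departure became 46 without scaling, 27 with spike-ins, 347 with normexp, 324 with log2 of the signal plus 16, and 100.0 to 161 leaving out 1 array, with the low end without gefitinib replicate 1. The median of 0.05 became -0.44 without scaling and -0.46 with spike-ins, a shift of all miRNAs by -0.49 and -0.51. The 44 miRNAs with combination arrays beyond the others became 29 without scaling, 77 with small-RNA control probes, 25 with spike-ins, and 45 to 108 leaving out 1 array, with 108 without combination replicate 1 and 78 without replicate 2. The slope of 0.64 became 0.58 with quantile normalization, 0.71 with the mean processed signal and the series table, 0.67 with normexp, 0.61 over miRNAs with the same probes on all arrays and 0.68 without miR-503-5p. The causes were not tested.

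Replicate differences correlated at 0.908 between DMSO and luteolin, 0.409 between DMSO and the combination and 0.461 between luteolin and the combination. Gefitinib gave -0.135 with DMSO, -0.09 with luteolin and 0.07 with the combination. Not every pair exceeded 0.1, so the replicate numbers, which are also the slide rows, were not taken as pairs. With the replicate block there were 2 calls (miR-503-5p and miR-3125) and 216 intervals within a 2-fold departure. Scaling to the 75th percentile of all miRNAs was not run, since on 5 arrays it falls on an undetected value. Signals near the floor limit the size of a fall that can be seen.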
